A study of Mus musculus with 13 samples.

Results

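miR-150-5p, miR-181a-5p and miR-342-3p, all known from lymphocytes, were followed in exosomes from mouse plasma as 3 of the 68 miRNA probes of a hybridization panel. Their rows were matched by name alone: a row was taken if its miRNA name, without the human prefix and ignoring case, was one of these 3, and each name matched 1 row. The 3 names themselves were chosen with earlier results of these data known. The mice were wild-type male C57BL/6J animals sampled 24 hours after surgery, 5 after a sham operation and 8 after cecal ligation and puncture (CLP), which releases gut bacteria into the abdomen and gives a polymicrobial sepsis. All 13 samples shared strain, genotype, sex and time, and no unoperated mouse was analysed here. Each sample was taken as 1 mouse, and p-values measure the spread between these samples only. Exosomes are small vesicles that cells shed into blood, and their RNA was measured in bulk, so vesicle number, RNA per vesicle and the number of cells that shed them cannot be told apart.

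A miRNA pairs through its seed, bases 2 to 8, with sites in messenger RNAs and lowers their output. miR-150 is abundant in mature B, T and natural killer cells and restrains the transcription factor Myb during B cell development. miR-181a is highest in immature thymocytes, where it represses several phosphatases and so makes the T cell receptor more sensitive to antigen. miR-342-3p is found in lymphoid cells and other blood lineages and is encoded within the span of Evl, the gene of an actin-regulating protein. None of the 3 is exclusive to lymphocytes, and the panel holds no lymphocyte protein or messenger RNA against which their source could be checked.

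RefSeq sequences (GRCm38.p6) were matched for 2 of the 3 members, and they are shown, 5′ to 3′ with the seed in capitals, because the miR-181 pair shares its seed whereas miR-342-3p has another:
miR-181a-5p: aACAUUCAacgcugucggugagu
miR-181b-5p: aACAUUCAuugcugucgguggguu
miR-342-3p: uCUCACACagaaaucgcacccgu
miR-181b-5p, a paralog that is also on the panel, was the only one of 48 panel miRNAs with a matched sequence to share a seed with either of the 2 members. Counted from 1 at the 5′ end of miR-181a-5p, the paralog differs by A9U, C10U and A21G and is 1 base longer. miR-181a-5p has 2 genes on the plus strand, Mir181a-1 (chr1:137966468-137966490) and Mir181a-2 (chr2:38852741-38852763, within the span of Nr6a1), and each copy has a Mir181b gene as its neighbour. miR-342-3p lies in Mir342 (chr12:108658680-108658702, plus strand). The probes carry human names, and whether those of the miR-181 pair cross-hybridize was not tested.

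The first question was how much signal of each miRNA was recovered, before any scaling between mice. All 3 were brighter after CLP, miR-150-5p by 5.55-fold, miR-181a-5p by 5.25-fold and miR-342-3p by 3.95-fold. A probe's brightness depends on the probe as well as on the miRNA, so the 3 are not ranked against each other by level.

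Raw fluorescence of miR-150-5p was 227, 560.2, 639, 227 and 1391 units in sham mice 1 to 5, and it ran from 1904 through a median of 2860.3 to 3682 units in the 8 CLP mice. The groups did not overlap, and sham mouse 5 was the brightest of its group. Its log2 change was 2.47 (SE 0.45, limma adjusted p = 0.000111). For miR-181a-5p the sham mice gave 46.2, 74.1, 73.9, 42.4 and 250.4 units, and the CLP mice ran from 157 through a median of 453 to 705 units. Here 7 of 8 CLP mice lay above every sham mouse, and the exception was CLP mouse 8, the dimmest CLP sample of the panel, which fell below sham mouse 5. The log2 change was 2.39 (SE 0.47, limma adjusted p = 0.000153). miR-342-3p gave 87.1, 220.3, 303, 93.2 and 680.0 units in sham mice, and 471, a median of 849.8 and up to 1407 units in CLP mice. Sham mouse 5 exceeded 3 of the 8 CLP mice, numbers 6, 7 and 8, and was below the other 5. The log2 change was 1.98 (SE 0.48, limma adjusted p = 0.000785).

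These rises were shared with nearly the whole panel: 90.9% of the 66 miRNAs tested on the unscaled signal were called higher, the median change was 1.87, and the groups did not overlap for 15.2%. By size of change, miR-150-5p came 12th, miR-181a-5p 14th and miR-342-3p 29th of 66. Sham mice 1 and 4 were the weakest samples over the panel. Without them the unscaled changes were 1.75 for miR-150-5p, 1.86 for miR-181a-5p and 1.19 for miR-342-3p, still past the threshold (limma adjusted p = 0.00312, 0.00633 and 0.0288), and 54.5% of the panel was called higher. The sham mice also varied more. The brightest sham mouse exceeded the dimmest by 6.14-fold for miR-150-5p, 5.91-fold for miR-181a-5p and 7.81-fold for miR-342-3p, against 1.93-fold, 4.48-fold and 2.99-fold among CLP mice. The geometric mean of the panel spanned 5.26-fold in sham and 3.17-fold in CLP mice.

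**Figure D1:**
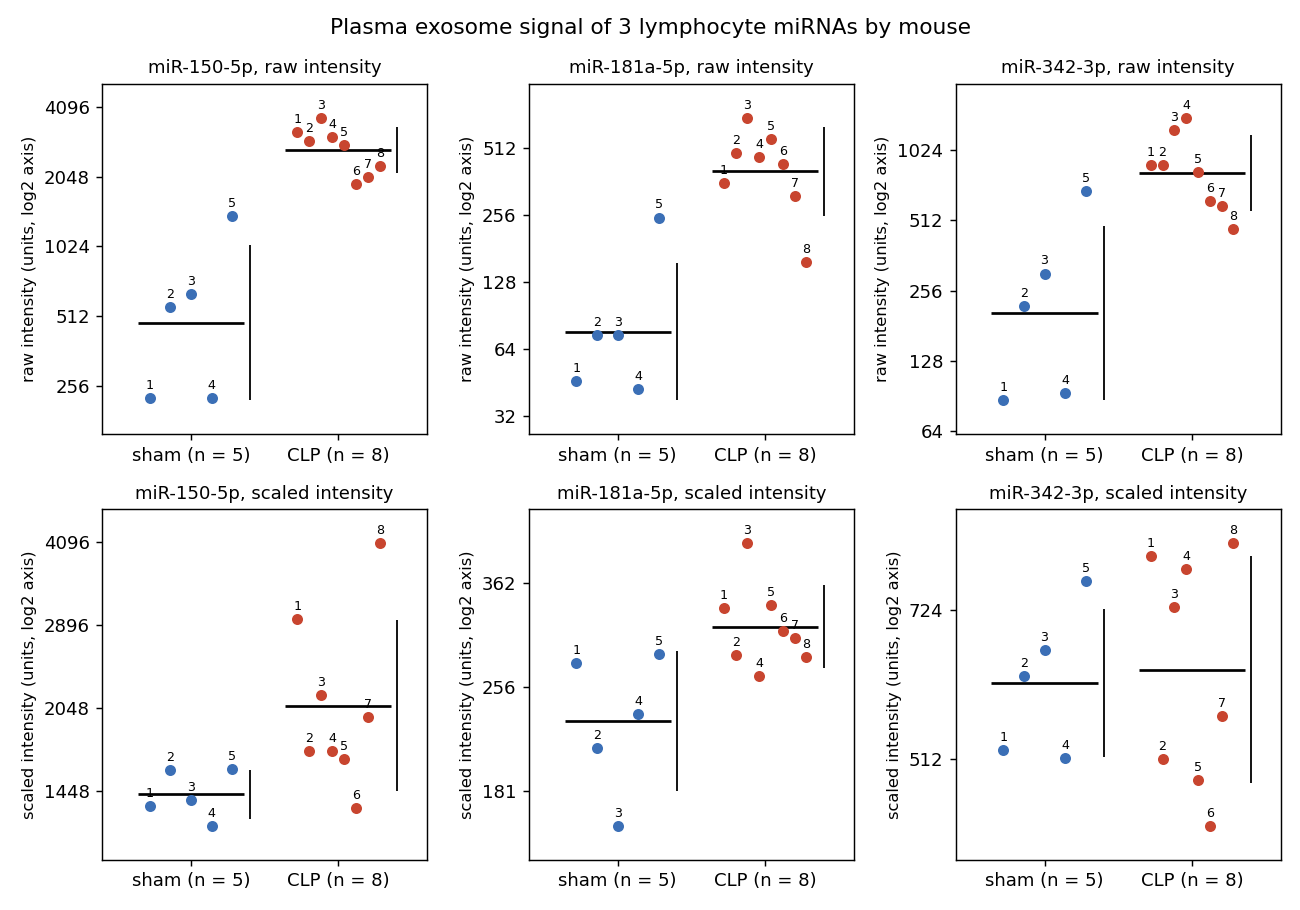
Raw intensity (top) and scaled intensity (bottom) of miR-150-5p, miR-181a-5p and miR-342-3p on log2 axes in fluorescence units, 1 numbered point per mouse, for sham (blue, n = 5) and CLP (red, n = 8). Lines give the mean and bars 1 SD, both of log2 values. Raw miR-150-5p separates the groups (227 to 1391 against 1904 to 3682 units), whereas scaled miR-342-3p spans the sham values (513 to 776) on both sides in CLP (438 to 846).

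The second question was whether the 3 miRNAs changed relative to the rest of the panel. To set a common scale, the signal of a mouse was expressed relative to its geometric mean over the 60 miRNAs with signal in all 13 mice, so a value now compares a miRNA with the panel of the same mouse. miR-150-5p and miR-181a-5p lay above the sham mean in most CLP mice and miR-342-3p did not, but none of the 3 passed the threshold, whereas 30.8% of the 65 miRNAs tested did (10.8% as higher).

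Scaled miR-150-5p was 1359, 1579, 1393, 1251 and 1588 units in sham mice 1 to 5, and from 1345 through a median of 1841 to 4079 units in CLP mice. In 7 of 8 CLP mice it exceeded every sham mouse, with CLP mice 1 (2965 units) and 8 (4079 units) far above the rest, while CLP mouse 6 fell among the sham values, so the groups overlapped, as they did for all 3 members (7.69% of the panel did not overlap). The log2 mean was 11.01 ± 0.52 (SD, n = 8) against 10.48 ± 0.15 (SD, n = 5), a change of 0.53 (SE 0.24, 95% interval 0.03 to 1.04, limma adjusted p = 0.0969). The sham mice thus differed little among themselves once scaled, and the CLP mice a good deal more.

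Scaled miR-181a-5p was 277, 209, 161, 234 and 286 units in sham mice, and from 266 through 304 to 413 units in CLP mice. Every CLP mouse lay above the sham mean and 5 of 8 lay above the highest sham mouse. The change was 0.45 (SE 0.17, 95% interval 0.08 to 0.82, limma adjusted p = 0.0548), from 7.84 ± 0.34 (SD, n = 5) to 8.29 ± 0.20 (SD, n = 8) in log2 units. Leaving out 1 mouse at a time gave 0.33 (without sham mouse 3, limma adjusted p = 0.142) to 0.53 (without sham mouse 5, limma adjusted p = 0.0364), and only without sham mouse 5 did it pass. In an exact two-sided permutation test over all splits of the mice, miR-181a-5p passed after Benjamini-Hochberg adjustment over the 65 miRNAs (p = 0.00544, adjusted 0.0267), and that test called 9.23% of the panel higher.

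Scaled miR-342-3p was 522, 621, 660.2, 513 and 776 units in sham mice whereas the CLP mice ran from 438 through 648 to 846 units. The CLP values fell on both sides, with 3 mice above and 3 below the sham range. The change was 0.04 (SE 0.20, 95% interval -0.39 to 0.48, limma adjusted p = 0.855). Without sham mice 1 and 4 the scaled changes were 0.45 for miR-150-5p, 0.56 for miR-181a-5p and -0.11 for miR-342-3p, none past the threshold (limma adjusted p = 0.275, 0.0628 and 0.735), where 6.15% of the panel was called higher.

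**Figure D2:**
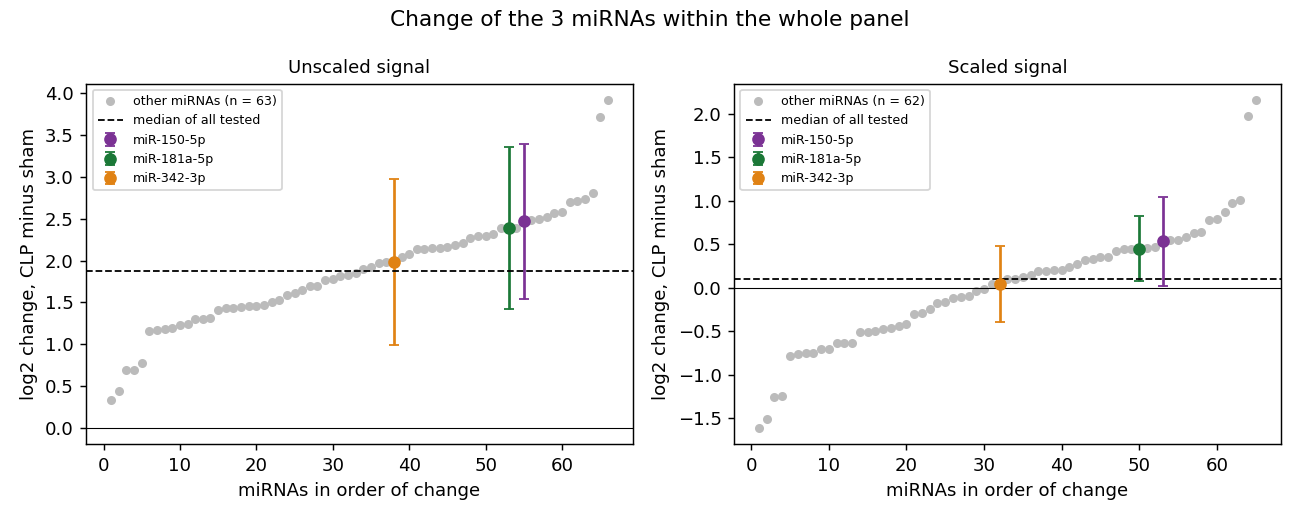
The log2 change (CLP minus sham) of every tested miRNA, in order of size, on the unscaled (left, 66 miRNAs) and scaled signal (right, 65 miRNAs), with the 3 lymphocyte miRNAs in colour with limma's 95% interval and the dashed line at the panel median (1.87 and 0.10). miR-150-5p and miR-181a-5p sit above the median in both, miR-342-3p near it, and all 3 unscaled intervals lie above 0.

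The calls moved with the scaling. Over 6 scalings (geometric mean, median, 75th percentile, quantile normalization, 3 most stable miRNAs, the authors' values), miR-150-5p ran from 0.45 to 0.88 and miR-181a-5p from 0.37 to 0.80, each called higher in 3. The 3 were the 75th percentile (miR-150-5p at 0.88, miR-181a-5p at 0.80, with 27.7% of the panel called higher), the authors' values (0.75 and 0.67, with 20%) and quantile normalization (0.73 and 0.58, with 7.81%). miR-342-3p was called in none and ran from -0.14 with quantile normalization to 0.39 with the 75th percentile, turning negative also with the median (-0.04, with 4.62% of the panel called higher) and the 3 most stable miRNAs (-0.04, with 9.23%). Every scaling here except quantile normalization uses 1 factor per mouse, which shifts the changes of the 3 members alike. With the median and the 3 most stable miRNAs, miR-342-3p stayed at -0.05 relative to the panel median. The calls of miR-150-5p and miR-181a-5p with the 75th percentile and the authors' values came with an upward shift of the panel. Its median change was 0.39 and 0.26 there, against 0.10 under the main scaling. The median change of the panel moved with the scaling too, from 0.01 with the median to 0.39 with the 75th percentile. Relative to that median, miR-150-5p lay at 0.49 with the 75th percentile, 0.44 under the main scaling and 0.71 after quantile normalization. miR-342-3p lay at -0.16 after quantile normalization.

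As a share of the summed raw signal, miR-150-5p took 2.36% ± 0.52 (SD, n = 5) in sham and 4.70% ± 1.22 (SD, n = 8) in CLP mice. The highest sham mouse stood at 3.08% and the lowest CLP mouse at 3.13%, so the groups did not overlap, as for 10.3% of the 68 miRNAs. miR-181a-5p took 0.381% ± 0.113 (SD, n = 5) and 0.702% ± 0.136 (SD, n = 8), with 7 of 8 CLP mice above every sham mouse. miR-342-3p took 1.03% ± 0.33 (SD, n = 5) and 1.42% ± 0.30 (SD, n = 8), with 3 of 8 above. The brightest probes set such a share: the erythroid miR-451a alone took 15.7% ± 5.52 (SD, n = 5) of the sham signal and 7.37% ± 1.92 (SD, n = 8) of the CLP signal, and its part in the shares of the 3 miRNAs was not tested.

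The third question was whether the 3 miRNAs kept their proportions to each other. A ratio within a mouse is free of any factor per sample, though it may still vary with the overall signal of a mouse, and it was compared between groups only. miR-150-5p rose against miR-342-3p after CLP, by 1.40-fold, whereas neither miRNA could be shown to differ in its ratio to miR-181a-5p.

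The ratio of miR-150-5p to miR-342-3p was 2.60, 2.54, 2.11, 2.44 and 2.05 in sham mice 1 to 5 and ran from 2.15 through a median of 3.37 to 4.82 in CLP mice. In 7 of 8 CLP mice the ratio exceeded every sham value, and CLP mouse 4, at 2.15, was the one that did not. The log2 difference was 0.49 (SE 0.16, 95% interval 0.15 to 0.83, exact two-sided permutation p = 0.0117, adjusted over 9 ratios 0.0210). The call was lost without sham mouse 3 or sham mouse 5 (adjusted exact p = 0.0509 and 0.0582), with differences of 0.45 and 0.44. Leaving out any other single mouse kept it, also CLP mouse 8, where the difference was lowest (0.41, adjusted exact p = 0.0227). Each such test has fewer splits of the mice than the full one. With group medians the difference was 0.47 (adjusted exact p = 0.0897), and without sham mice 1 and 4 it was 0.56 (adjusted exact p = 0.0545). Among all 1770 pairs of the 60 miRNAs above 0 in every mouse, 41.5% had an unadjusted exact p under 0.05, and 61.1% had a larger difference, so a shifted ratio was common on this panel. The narrow spread was less common. The within-group SD of the log2 ratio was 0.28, against a median of 0.62 over all pairs, and 2.15% of the pairs had a smaller one. Of the 60 miRNAs, 43 reached 10 raw units in every mouse, both members among them. Pairs of these brighter miRNAs were not compared alone, so the narrow spread is not shown to be particular to this pair.

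The ratio of miR-150-5p to miR-181a-5p was 4.90, 7.56, 8.65, 5.36 and 5.56 in sham mice and ran from 4.36 through 6.22 to 14.4 in CLP mice. The highest value, in CLP mouse 8, stood well above the next, 8.91 in CLP mouse 1, and the lowest was also a CLP mouse. The log2 difference was 0.08 (SE 0.28, 95% interval -0.50 to 0.70, exact permutation p = 0.793, adjusted 0.793), and it was -0.08 without CLP mouse 8. The ratio of miR-181a-5p to miR-342-3p was 0.531, 0.337, 0.244, 0.455 and 0.368 in sham mice and from 0.334 through 0.544 to 0.703 in CLP mice. Here 5 of 8 CLP mice exceeded every sham mouse, while CLP mice 4 and 8, both near 0.334, lay low. The log2 difference was 0.41 (SE 0.25, 95% interval -0.14 to 0.95, exact permutation p = 0.121, adjusted 0.156), and it was 0.25 without sham mouse 3 and 0.67 without sham mice 1 and 4.

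**Figure D3:**
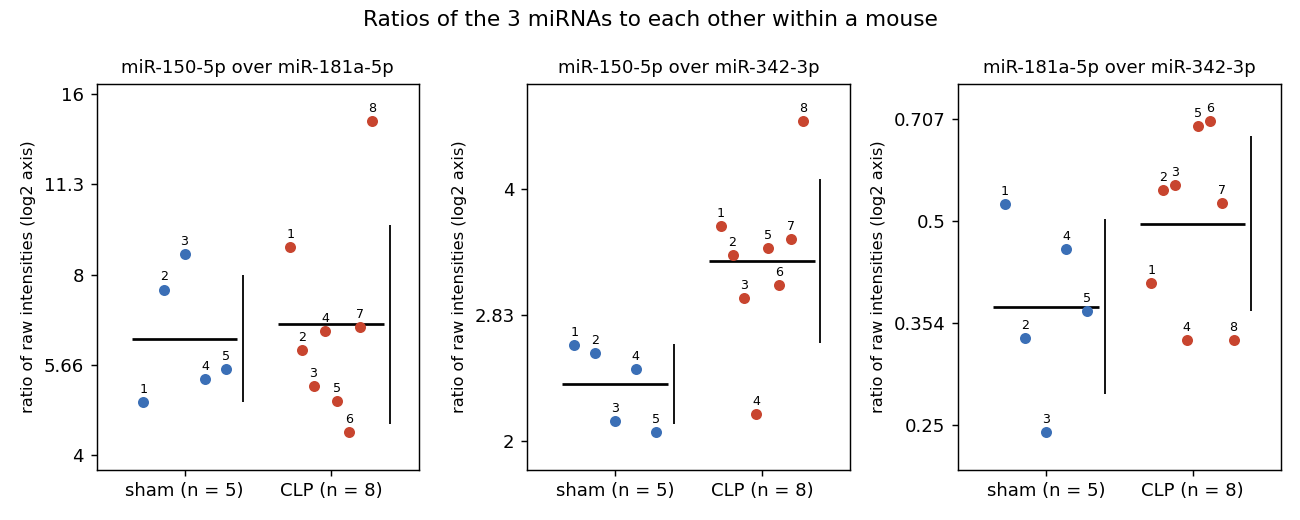
Ratios of raw intensities within a mouse on log2 axes, 1 numbered point per mouse, for sham (blue, n = 5) and CLP (red, n = 8), with the mean and 1 SD of log2 ratios. miR-150-5p over miR-342-3p is higher in 7 of 8 CLP mice than in any sham mouse, and miR-150-5p over miR-181a-5p overlaps, with CLP mouse 8 at 14.4.

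Against miRNAs of other blood cells, the 3 differed by reference. miR-223-3p is abundant in neutrophils and other myeloid cells. Its own scaled change was -0.11 (limma adjusted p = 0.699). Relative to it miR-150-5p rose by 1.56-fold, with ratios of 0.453, 0.622, 0.480, 0.669 and 0.630 in sham mice and from 0.628 through 0.813 to 1.37 in CLP mice. All CLP mice other than number 6 exceeded every sham mouse, and the log2 difference was 0.64 (95% interval 0.22 to 1.08, exact permutation p = 0.00699, adjusted 0.0157). Of all pairs of the panel, 51.0% had a larger difference. With group medians in place of means the difference was 0.39 and did not pass (adjusted exact p = 0.0897), nor did it without sham mice 1 and 4 (0.62, adjusted exact p = 0.0636). miR-181a-5p over miR-223-3p differed by 0.56 (95% interval 0.01 to 1.10, exact p = 0.0466, adjusted 0.0699) and missed the threshold after adjustment. Of the 13 fits that left out 1 mouse, it passed without CLP mouse 8 or sham mouse 4 (0.67 and 0.68, adjusted exact p = 0.0159 and 0.0394) and in no other, and it was lowest without sham mouse 3 (0.38, adjusted exact p = 0.197). miR-342-3p over miR-223-3p differed by 0.15 (95% interval -0.33 to 0.63, exact p = 0.497, adjusted 0.559).

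miR-451a, the main miRNA of red cells, is the other reference, and all 3 rose against it. The ratio of miR-150-5p to miR-451a was 0.123, 0.137, 0.243, 0.0718 and 0.307 in sham mice and ran from 0.432 through 0.617 to 0.830 in CLP mice, without overlap, as for 10.8% of all pairs. Its rise was 4.11-fold (log2 2.04, 95% interval 1.36 to 2.73, exact p = 0.000777, adjusted 0.00699), and that p is the smallest the design can give. miR-181a-5p rose 3.88-fold against miR-451a (log2 1.96, exact p = 0.00155, adjusted 0.00699) and miR-342-3p 2.92-fold (log2 1.55, exact p = 0.00233, adjusted 0.00699), with 7 and 6 of 8 CLP mice above every sham mouse. miR-451a itself was lower after scaling (-1.50, limma adjusted p = 0.0044) and higher without it (0.44, limma adjusted p = 0.272). By size of change, miR-451a came 64th of 65 miRNAs scaled and 65th of 66 unscaled. Nearly every other miRNA of the panel therefore also rose against it, and the rise is not particular to the 3 members. The summed scaled level of the 3 erythroid miRNAs on the panel ran from 15114 to 36232 units in the sham group and between 7979 and 17848 units after CLP. Within groups, miR-451a also followed the overall signal of a mouse less than the 3 members did. Its log2 raw signal rose by 0.29 (SE 0.12) per log2 unit of the panel's geometric mean, against 0.79, 1.02 and 1.05 for miR-150-5p, miR-181a-5p and miR-342-3p. A ratio to miR-451a therefore varies with the level of a mouse, and the mean log2 level was 1.94 higher in CLP mice. The part of the erythroid fall or of the level in these ratios was not tested. Without sham mice 1 and 4 the ratios to miR-451a differed by 1.55, 1.66 and 0.99, with adjusted exact p = 0.0545, 0.0545 and 0.0636, where the smallest unadjusted p that 3 sham mice allow is 0.00606.

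Among CLP mice, miR-150-5p and miR-342-3p varied together and miR-181a-5p with neither. Over the 8 CLP mice, scaled miR-150-5p and miR-342-3p had a Pearson r of 0.78 (exact permutation p = 0.0134, adjusted over 3 pairs 0.0401) and a Spearman rho of 0.93 (exact permutation p = 0.00223, adjusted 0.0067). CLP mice 1 and 8 were high in both and CLP mice 5 and 6 low in both. Without the 2 mice farthest from the median in miR-150-5p, which were CLP 8 and CLP 1, r was 0.65. Leaving out 1 CLP mouse at a time gave 0.70 to 0.94, past the threshold only without CLP mouse 4, and with the authors' values r was 0.66 (adjusted exact permutation p = 0.229).

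For miR-150-5p with miR-181a-5p, r was 0.02 and rho -0.10 (exact permutation p = 0.963 and 0.840, adjusted 0.9996 and 0.840), and without CLP 8 and CLP 1 it was 0.48. For miR-181a-5p with miR-342-3p, r was -0.0003 and rho -0.33 (exact permutation p = 0.9996 and 0.428, adjusted 0.9996 and 0.642), and -0.10 without CLP 3 and CLP 4. CLP mouse 8 shows the contrast in single values, at 4079 units the highest for miR-150-5p and at 846 the highest for miR-342-3p, but with 282 units below the CLP median for miR-181a-5p. The sham group was too small for a correlation. The columns of CLP 6 and CLP 7 are exchanged between the authors' tables, so the values of those 2 mice follow the raw table's labels, and group means do not depend on it.

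**Figure D4:**
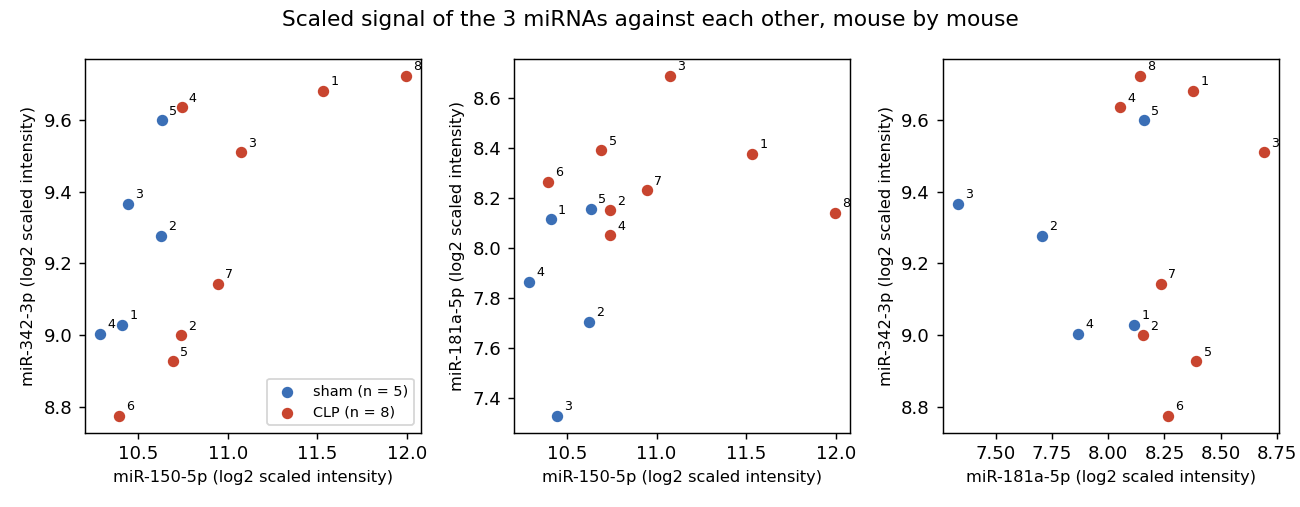
Scaled log2 intensity of the 3 miRNAs against each other, 1 numbered point per mouse, sham in blue (n = 5) and CLP in red (n = 8). In the CLP mice miR-150-5p and miR-342-3p line up (r = 0.78), whereas miR-181a-5p shows no such line with miR-150-5p (0.02) or with miR-342-3p (-0.0003).

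The miRNAs closest to each member were then ranked over all 13 mice. For miR-150-5p with miR-342-3p this is not a second observation, since the same 8 CLP mice are included. In log2 scaled miR-150-5p the CLP mice varied more (SD 0.52) than the 5 sham mice (SD 0.15). After subtraction of the group means, miR-342-3p ranked second of 63 miRNAs in its correlation with miR-150-5p (r = 0.76, rho = 0.87), behind the endothelial and platelet miR-126-3p (r = 0.86, rho = 0.68) and ahead of miR-142-3p of blood cells in general (r = 0.65, rho = 0.39). miR-126-3p itself rose after scaling, by 0.80 (SE 0.23, limma adjusted p = 0.0192), from 530 to 644 units in sham mice to 709 to 1672 units in CLP mice without overlap. Its part in the values of miR-150-5p was not tested. For miR-342-3p the closest were miR-92a-3p, from the same cluster as miR-17-5p (r = 0.80, rho = 0.80), miR-146a-5p, which restrains Toll-like receptor signalling (r = 0.79, rho = 0.69), and miR-150-5p. miR-181a-5p had no partner as close, with miR-29b-3p (r = 0.47), miR-221-3p (r = 0.43) and its paralog miR-181b-5p (r = 0.35) first. These r are descriptions with no p, taken from the top 3 of 63 for each member, and all share the factor per mouse.

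The 3 also followed the overall signal of a mouse. Within groups, log2 raw signal rose per log2 unit of the panel's geometric mean (taken without the miRNA itself) by 0.79 (SE 0.17) for miR-150-5p, 1.02 (SE 0.11) for miR-181a-5p and 1.05 (SE 0.14) for miR-342-3p. Among 40 further miRNAs that reached 10 raw units in all mice the median slope was 0.83, with a range of 0.29, for miR-451a, to 1.62. The ratio of miR-150-5p to miR-342-3p was highest in the mouse of each group with the lowest panel geometric mean (2.60 in sham 1, 4.82 in CLP 8). It was lowest in the mouse of each group with the highest (2.05 in sham 5, 2.15 in CLP 4). The part of the level in the ratios between members was not tested. The 3 CLP mice with the lowest panel geometric mean were CLP 8 (153 units), CLP 7 (285 units) and CLP 1 (295 units), against a CLP median of 426. CLP 8 and CLP 1 had the highest scaled miR-150-5p, and CLP 7 stood at 1970 units, above the CLP median of 1841. With the level as a covariate in the unscaled fit, the change was 0.93 for miR-150-5p (limma adjusted p = 0.139), 0.42 for miR-181a-5p (0.432 by the same test) and -0.05 for miR-342-3p (0.961 by the same test), and 6.06% of the panel was called higher. In 7 of 8 CLP mice the panel geometric mean exceeded that of every sham mouse, so this fit can barely separate the level from the surgery.

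Of 16 other miRNAs with roles in immune and stress responses, all tested in the scaled fit, 2 rose, 4 fell and 10 did not pass, where 10.8% of the whole panel rose and 20% fell. The counts of the list lie near these shares, with a median change of 0.26 against 0.10 over the panel and 0.45 over the 3 lymphocyte miRNAs. The 2 that rose were miR-146a-5p (0.87, limma adjusted p = 0.0192) and miR-125a-5p (0.64, limma adjusted p = 0.0465), the latter a regulator of cytokine signalling. The 4 that fell were miR-16-5p (-1.24), which targets cell cycle genes, miR-21-5p (-0.75), common in activated leukocytes, and miR-17-5p (-0.79) and miR-20a-5p (-0.51), which share a cluster known to promote lymphocyte growth. Before scaling all 4 changes were positive (0.70, 1.19, 1.15 and 1.43 in that order), and quantile normalization turned miR-16-5p to 0.14. miR-16-5p is also 1 of the 3 erythroid miRNAs summed above, so its fall is not a separate observation from theirs. Over the 6 scalings miR-146a-5p passed in 4, miR-125a-5p in 3, miR-16-5p and miR-17-5p in 5 each, and miR-21-5p and miR-20a-5p in 3 each.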

How the data were processed

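The authors deposited raw fluorescence intensity per miRNA probe, on a linear scale and unscaled between samples. A second table of theirs, also intensity, equals the first after multiplication by a sample-wide factor (0.45 to 4.31) of unstated origin. Per the labels' protocols, plasma was ultracentrifuged to collect exosomes, RNA was column-extracted, and miRNAs bound to particles were ligated to adapters and amplified by RT-PCR. Any background subtraction, and the scanner, were not given in the sources used here, and no further subtraction was made.

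For scaling, a mouse's level was its geometric mean over the 60 miRNAs with signal in all mice. Values were divided by it, multiplied by the mean level over mice, floored at the 5th percentile of positive values (3.09 units; 2.10 unscaled) and taken to log2. Those exceeding the floor in 5 or more mice were tested (65 scaled, 66 unscaled); the 3 members lay above it in every sample. limma 3.58.1 in R 4.3.3 (lmFit, eBayes, two-sided, Benjamini-Hochberg over all tested miRNAs, threshold 0.05) gave every adjusted p of a single miRNA unless a permutation test is named. For ratios of raw intensities an exact permutation test (two-sided, all 1287 splits) was used and inverted for intervals. The panel's summed raw signal ran from 10598 to 45121 units in sham and from 33043 to 74685 units in CLP mice; the number of mice limits precision.

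Named miRNAs are the 3 members, 2 reference miRNAs, for each member the 3 with the highest group-centred correlation, and those of the fixed list of 16 that passed; miR-181b-5p was compared after its values were seen. The members and lists were chosen with earlier results of these data known. The fits were run on simulated data with shifts larger than the members' scaled changes. Sensitivity to changes as small as theirs was not tested. Same-numbered mice had deviations correlating at -0.34 to 0.30, so the numbers were not taken to pair mice. Alternatives were other scalings, floors, filters, tests, a replicate block, the level as covariate, and samples left out. Figures used Python 3.11.15 and matplotlib 3.10.9.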

Additional observations from a re-analysis of the deposited data

How the results depend on the processing

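The unscaled rises of all 3 miRNAs kept their direction and passed in every alternative tried: 1 unit added in place of the floor, no filter, the exact permutation test, the replicate block, each mouse left out and sham mice 1 and 4 left out. With the mice left out in turn they ran from 2.20 to 2.86 for miR-150-5p, 2.18 to 2.82 for miR-181a-5p and 1.67 to 2.41 for miR-342-3p.

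The scaled change of miR-150-5p passed with the 75th percentile (0.88), quantile normalization (0.73) and the authors' values (0.75); that of miR-181a-5p passed there (0.80, 0.58 and 0.67), and, with its value unchanged at 0.45, when all miRNAs were kept (adjusted p = 0.0346), when only those at 10 or more raw units were kept (0.0345) and in the permutation test. The 75th percentile and the authors' values use 1 factor per mouse and so shift the changes of all 3 members alike. With 1 mouse left out, the scaled change ran from 0.39 to 0.62 for miR-150-5p and from 0.33 to 0.53 for miR-181a-5p. That of miR-342-3p turned negative with the median (-0.039), quantile normalization (-0.14), the 3 most stable miRNAs (-0.036), the level as covariate (-0.052) and without sham mice 1 and 4 (-0.11), of which the median and the 3 stable miRNAs shift the whole panel alike, and ran from -0.018 to 0.13 with 1 mouse left out. With the replicate block, no member's scaled change passed (miR-150-5p 0.48, miR-181a-5p 0.50, miR-342-3p 0.10), and the panel had 6 calls against 20; CLP mice 6 to 8 have no sham mouse of their number and add nothing to that estimate, so the block and their loss cannot be told apart. Calls on the panel also moved to 12 with quantile normalization and 8 with the level as covariate, and ranged from 11 to 23 with 1 mouse left out, the lowest without sham mouse 2. The cause was not tested.

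The ratio of miR-150-5p to miR-342-3p did not pass with medians (0.47) or without sham mice 1 and 4 (0.56), nor did that to miR-223-3p (0.39 and 0.62), and without those mice neither did the ratios to miR-451a (1.55, 1.66 and 0.99); 3 sham mice leave few splits. With 1 mouse left out, miR-150-5p over miR-342-3p ran from 0.41 to 0.58, miR-181a-5p over miR-223-3p from 0.38 to 0.68 and miR-181a-5p over miR-342-3p from 0.25 to 0.53. miR-150-5p over miR-181a-5p turned to -0.11 without sham mice 1 and 4 and ran from -0.080 to 0.20 with 1 mouse left out. miR-342-3p over miR-223-3p was -0.069 with medians. Correlations in CLP mice moved with the authors' values to 0.66 for miR-150-5p with miR-342-3p, -0.41 for miR-150-5p with miR-181a-5p and -0.38 for miR-181a-5p with miR-342-3p. With 1 mouse left out they ran from 0.70 to 0.94, -0.10 to 0.40 and -0.32 to 0.21.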

Other observations

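miR-181a-5p and its paralog miR-181b-5p, which share a seed and neighbour each other in both genomic copies, did not keep one proportion. This ratio was looked at after the values were seen. miR-181a-5p over miR-181b-5p was 1.25, 1.02, 1.21, 2.91 and 1.55 in sham mice 1 to 5 and ran from 2.25 through a median of 2.67 to 3.20 in the 8 CLP mice. Sham mouse 4 lay among the CLP mice, and the other 4 sham mice lay below all of them. The log2 difference was 0.87 (SE 0.22, 95% interval 0.38 to 1.27, exact two-sided permutation p = 0.00544, not adjusted), against 41.5% of all pairs of the panel with an unadjusted p under 0.05. It ran from 0.73 to 1.11 with 1 mouse left out, with an exact p of at most 0.0141, and was 1.11 without sham mouse 4.

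On the unscaled signal miR-181b-5p rose by 1.53 (SE 0.49, limma adjusted p = 0.00638) against 2.39 for miR-181a-5p, and after scaling it stood at -0.41 (SE 0.22, limma adjusted p = 0.163). In sham mouse 4 the raw signal of miR-181b-5p was 14.6 units, the lowest of all 13 mice, where miR-181a-5p gave 42.4 units. Whether the probes tell the 2 paralogs apart was not tested.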
